A study of Homo sapiens with 27 samples.

Results

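Genes that build the basement membrane of vessels, 10 in all, were followed in human EA.hy926 cells: the laminin chains LAMA3, LAMA4, LAMA5, LAMB1, LAMB2 and LAMC1, the nidogens NID1 and NID2, and the heparan sulfate proteoglycans HSPG2 (perlecan) and AGRN (agrin). The members are the 10 rows, of 60604 gene entries used, whose Ensembl identifier maps to these symbols. All 10 passed the filter on low counts in every fit. EA.hy926 is a hybrid endothelial line made from umbilical vein endothelial cells and the lung carcinoma line A549. Its cultures were sequenced alone or after contact with ASC52telo, a TERT-immortalised line of adipose mesenchymal stromal cells (MSCs), or with what those cells had made.

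There were 7 groups, all in the same serum-containing medium and all labelled wild type. Control cells received nothing from MSCs. In the remaining groups exposure lasted 48 h, and each type of exposure was run with young (untreated) and with senescent MSCs, the latter made by 18 h in the crosslinking drug mitomycin C (1.5 µg/mL) and a further 10 days of culture. In the ECM groups endothelial cells grew on the matrix left after MSC layers were stripped of cells with Triton X-100 and NH4OH. In the CM groups MSC conditioned medium made up an equal part of the medium, and in the co-culture groups both cell types shared the dish in equal numbers. Each stromal and endothelial population is a single cell line, and the labels give no step that separated the cell types after co-culture. The cell type label names endothelial cells in all libraries, whereas the extraction protocol names MSCs. Values come from replicates 2 to 4 of each group (n = 3 libraries), with replicate 1 described apart because its libraries differ.

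Laminins are cross-shaped trimers of an alpha, a beta and a gamma chain that polymerise on the cell surface and bind integrins and dystroglycan. Endothelial basement membranes hold mainly the trimers of LAMA4 or LAMA5 with LAMB1 or LAMB2 and LAMC1, while LAMA3 is best known from epithelia. Nidogens and perlecan link the laminin network to the collagen IV network, and the heparan sulfate chains of perlecan and agrin hold growth factors.

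Promoter sequences of the 4 members with the clearest differences in co-culture and with RefSeq sequence upstream of all annotated starts are shown to give the sequence context of these genes; no factor binding was measured. They are RefSeq sequences of GRCh38.p14 on the strand of the gene, 5′ to 3′, cut where the first annotated exon begins, and capitals mark matches to the GC box (GGGCGG, read on both strands). HSPG2 lies on chr1:21937311-21937560, NID1 on chr1:236065163-236065340, NID2 on chr14:52069229-52069309 and LAMB1 on chr7:108003256-108003411, all on the minus strand.
HSPG2: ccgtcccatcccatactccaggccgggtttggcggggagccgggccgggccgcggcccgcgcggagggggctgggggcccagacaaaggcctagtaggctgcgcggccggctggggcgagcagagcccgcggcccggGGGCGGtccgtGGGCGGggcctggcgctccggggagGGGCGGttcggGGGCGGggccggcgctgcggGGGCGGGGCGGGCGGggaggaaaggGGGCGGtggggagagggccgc
NID1: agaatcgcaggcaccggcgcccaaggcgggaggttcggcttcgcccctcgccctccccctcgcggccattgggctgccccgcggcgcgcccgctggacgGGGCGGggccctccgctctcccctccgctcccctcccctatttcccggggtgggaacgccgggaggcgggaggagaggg
NID2: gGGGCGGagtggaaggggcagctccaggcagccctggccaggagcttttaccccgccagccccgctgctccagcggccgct
LAMB1: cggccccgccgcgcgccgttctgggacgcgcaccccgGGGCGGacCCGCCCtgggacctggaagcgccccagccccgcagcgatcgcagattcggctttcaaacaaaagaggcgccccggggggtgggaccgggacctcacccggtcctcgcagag

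RefSeq promoter windows of 300 bases, reaching from 250 bases before the start into the gene, were at hand for 9 of the 10 members, all but AGRN. The GC box matched 10 times in the window of HSPG2, overlapping matches counted, 5 times in LAMA5, 4 times each in LAMB1 and NID2 and 3 times in LAMC1. LAMA3, LAMB2 and NID1 held 1 match each, and LAMA4 held 0. Of 35116 human promoter windows, 45% held at least 1 such match. The TATA box letters (TATAAA) matched 0 times in the 9 windows, against 11.5% of all windows. LAMA3 alone among the 9 held the AP-1 letters (TGANTCA), with 2 matches, against 7.71% of all windows with at least 1.

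Control cells held LAMB1, LAMC1 and LAMA4, the chains of one endothelial laminin trimer, at the highest mean levels. Levels are in CPM (counts scaled to the library total, here with TMM factors), and for comparison between genes they were divided by the length of the gene's exons in kilobases. On that length-corrected scale the control means were 65.3 for LAMB1, the main beta chain, and 59.4 for LAMC1, the gamma chain common to most laminins. The alpha chain LAMA4 followed at 37.6, ahead of HSPG2 at 17.9 and LAMA5 at 16. The lower members were LAMB2 at 12.9, AGRN at 6.42, NID1 at 2.99 and LAMA3 at 2.58. NID2 stood far below all of them at 0.038, from 9 to 35 counts per library over the 15 control, ECM and CM libraries.

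**Figure D1:**
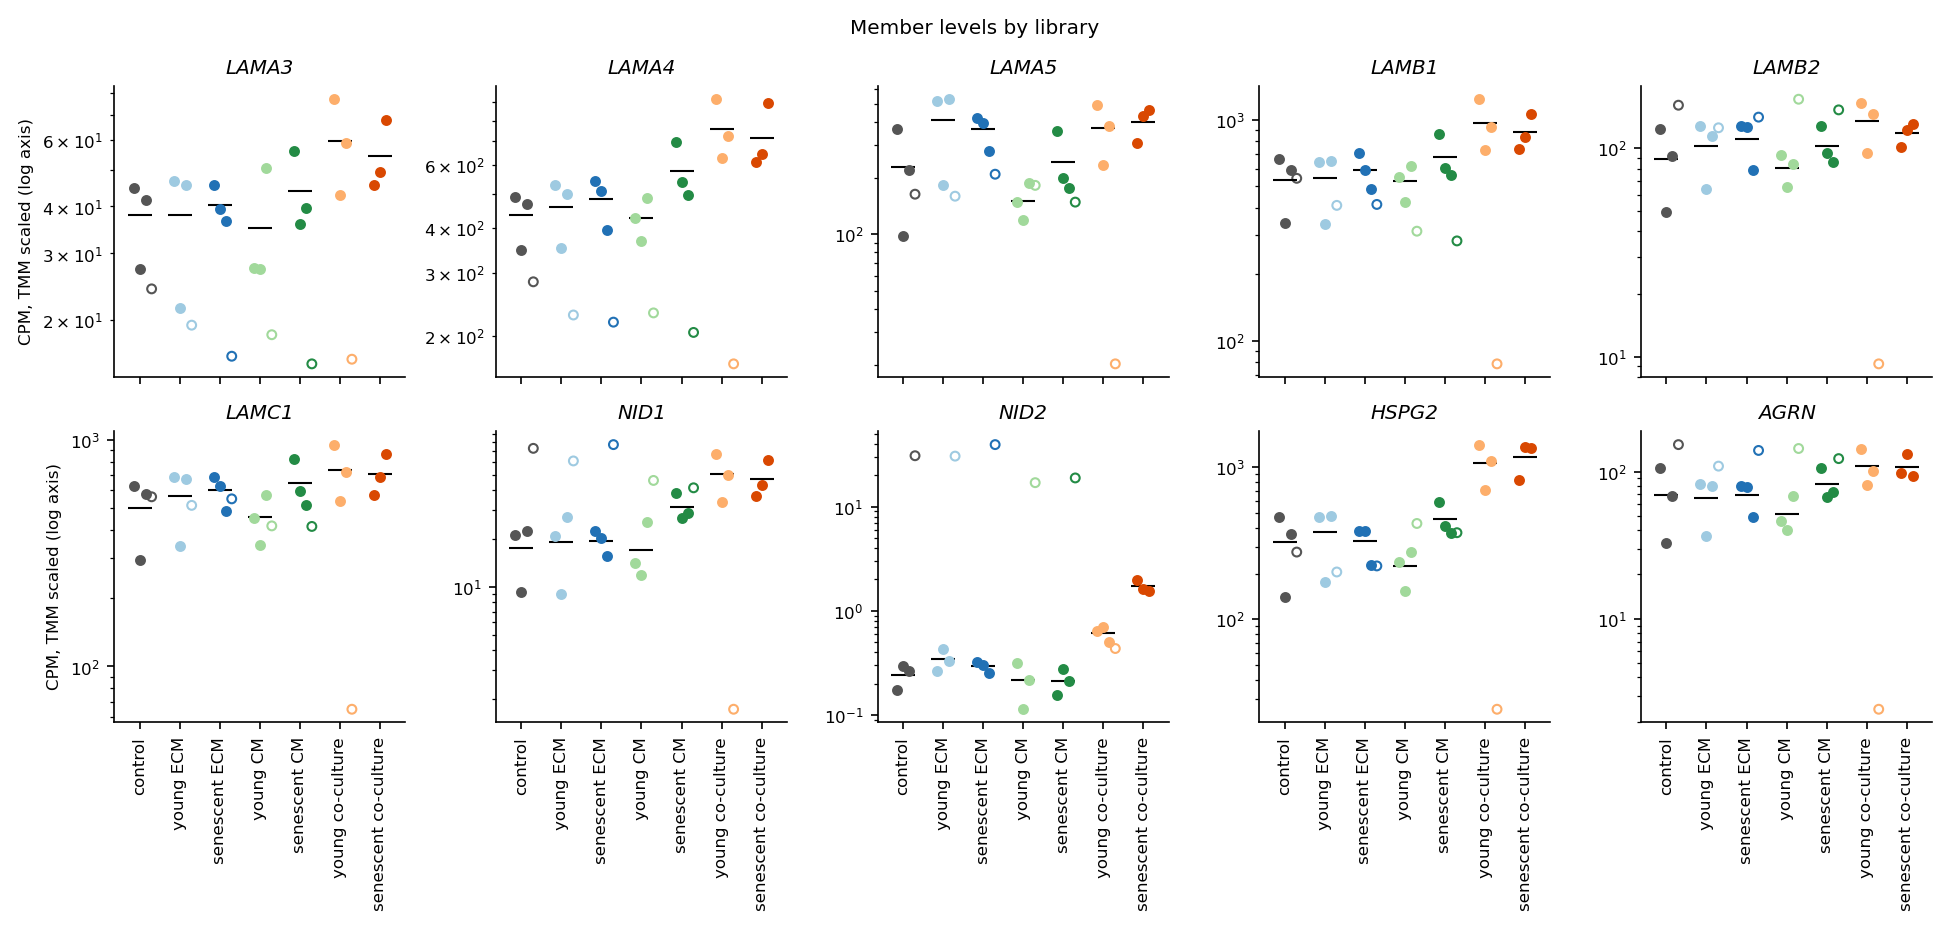
Level of each member in every library (CPM with TMM scaling, log axis), by group. Filled points are replicates 2 to 4, black lines their mean, and open points replicate 1; NID2 in replicate 1 reaches 39.4 CPM where the same groups otherwise stay at or below 0.432 CPM, and the open co-culture point (young) lies low for most members.

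Direct co-culture brought the higher levels of this set. In co-culture with young MSCs, HSPG2, NID1, NID2, LAMB1 and LAMA4 rose, 5 of 10 members against 9.68% of all genes called in either direction and 6.71% called higher (edgeR quasi-likelihood test, Benjamini-Hochberg adjusted p under 0.05). With senescent MSCs HSPG2, NID1, NID2 and LAMA4 rose, 4 of 10 against 8.05% of all genes in either direction and 5.82% higher. The libraries of 5 members lay wholly above control with young MSCs and those of 6 with senescent MSCs, LAMB1 and LAMA3 included in the latter, against 14.3% and 13.4% of all genes. All 10 members had positive log2 fold changes in both comparisons, with medians of 0.78 and 0.77 where the medians of all genes were 0.01 and 0.02. The co-culture comparisons share their control libraries, so their likeness is no independent observation. These counts depend on scaling and on single libraries. With libraries scaled to 21 endothelial identity genes in place of TMM, HSPG2 and NID1 stayed called with young MSCs and HSPG2, NID1 and NID2 with senescent MSCs, but 5 and 6 of the 10 members then had negative log2 fold changes.

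HSPG2 (ENSG00000142798.20, chr1:21822245-21937297 of GRCh38, minus strand) encodes perlecan, the large proteoglycan of vascular basement membranes. Control libraries held 472, 140 and 362 CPM in replicates 2, 3 and 4. Young co-culture libraries held 1409, 706 and 1094 CPM, and senescent co-culture libraries 830, 1359 and 1334 CPM. Every co-culture library lay above every control library, and indeed above the highest of the 15 control, ECM and CM libraries, at 593 CPM. The log2 fold change against control was 1.76 ± 0.38 (SE, adjusted p = 0.015) with young MSCs and 1.90 ± 0.39 (adjusted p = 0.0099) with senescent MSCs by edgeR. On the endothelial scale these became 0.99 (adjusted p = 0.016) and 1.08 (adjusted p = 0.0092). Without young co-culture replicate 2 the adjusted p with young MSCs was 0.0668, and without control replicate 4 it was 0.0531, so that call rests on each of those libraries; with senescent MSCs it held in all 6 such fits.

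NID1 (ENSG00000116962.15, chr1:235975830-236065162, minus strand), the nidogen that binds the laminin gamma chain, changed nearly as much. Its control libraries held 21.0, 9.31 and 22.3 CPM. Young co-culture gave 67.5, 33.6 and 49.9 CPM, and senescent co-culture gave 36.8, 43.0 and 62.0 CPM. No co-culture library reached down to the control range. Its log2 fold changes by edgeR were 1.56 ± 0.33 (adjusted p = 0.013) and 1.48 ± 0.33 (adjusted p = 0.017), and 0.77 (adjusted p = 0.027) and 0.65 (adjusted p = 0.0495) on the endothelial scale. The first was lost without young co-culture replicate 2 (adjusted p = 0.0607) and the second without senescent co-culture replicate 4 (adjusted p = 0.0802).

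NID2 (ENSG00000087303.18, chr14:52004803-52069228, minus strand), the second nidogen, differed from the other members in both level and pattern. Control libraries held 0.174, 0.296 and 0.265 CPM. Young co-culture libraries held 0.637, 0.703 and 0.502 CPM, and senescent co-culture libraries 1.97, 1.61 and 1.56 CPM. The 3 groups did not overlap, with senescent co-culture highest; between the co-cultures 7.11% of all genes were separate and higher with senescent MSCs. Log2 fold changes against control were 1.37 ± 0.26 (adjusted p = 0.0076) and 2.86 ± 0.26 (adjusted p = 5.6e-05, edgeR). The co-culture libraries held 53 to 162 counts of NID2, so its absolute level stayed the lowest of the set by far. On the endothelial scale the log2 fold change with young MSCs was 0.54 and was no longer called (adjusted p = 0.156), while that with senescent MSCs was 1.94 (adjusted p = 0.000744).

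Laminin chains completed the called members. LAMA4 (ENSG00000112769.20, chr6:112108760-112254939, minus strand), an alpha chain typical of endothelium, held 490, 348 and 469 CPM in control, 917, 629 and 725 in young and 612, 644 and 892 in senescent co-culture. All 6 co-culture libraries lay above the 3 control libraries. Its log2 fold changes by edgeR were 0.84 ± 0.19 (adjusted p = 0.019) and 0.76 ± 0.19 (adjusted p = 0.031), but 0.02 and -0.11 on the endothelial scale. Its call fell away without young co-culture replicate 2 (adjusted p = 0.0935), without young co-culture replicate 4 (0.0519) or without control replicate 4 (0.0671), and with senescent MSCs in 5 of 6 such fits (adjusted p from 0.0571 to 0.155), the exception being the fit without control replicate 2.

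LAMB1 (ENSG00000091136.15, chr7:107923799-108003255, minus strand) held 662, 341 and 590 CPM in control, 1236, 726 and 927 in young co-culture and 735, 830 and 1060 in senescent co-culture. Here too all co-culture libraries lay above all control libraries, though the lowest, at 726 CPM, came close to the highest control library at 662 CPM. The log2 fold changes by edgeR were 0.90 ± 0.25 (adjusted p = 0.045) with young MSCs and 0.77 ± 0.25 (adjusted p = 0.091) with senescent MSCs, against 0.10 and -0.08 on the endothelial scale. The first was lost when control replicate 3 or 4, or young co-culture replicate 2 or 4, was left out (adjusted p from 0.0616 to 0.192), with DESeq2 size factors (0.0519) and in the fit of all 21 libraries (0.0551). DESeq2 called LAMB1 with senescent MSCs (adjusted p = 0.0448), as did edgeR without control replicate 2 (0.0457).

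The other 5 members had fold changes that did not pass the test. LAMC1 gave log2 fold changes of 0.60 ± 0.27 and 0.55 ± 0.27 with young and senescent MSCs under TMM, and -0.19 and -0.29 on the endothelial scale. LAMB2, the beta chain of mature vessels and synapses, gave 0.65 ± 0.29 and 0.47 ± 0.29 (-0.13 and -0.37 on the endothelial scale). For LAMA5, the alpha chain of mature vessels, the values were 0.73 ± 0.39 and 0.86 ± 0.39, against -0.03 and 0.05. AGRN, best known for clustering acetylcholine receptors at the synapse, gave 0.69 ± 0.34 and 0.68 ± 0.34, against -0.08 and -0.14. LAMA3 gave 0.69 ± 0.24 and 0.57 ± 0.24 under TMM, against -0.12 and -0.29. In the young co-culture comparison, where same-numbered libraries varied together, blocking on the replicate number brought LAMA3 past the threshold (adjusted p = 0.0327, edgeR), for 6 members in all. Adjusted p-values of these members without the block ran from 0.099 to 0.4.

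**Figure D2:**
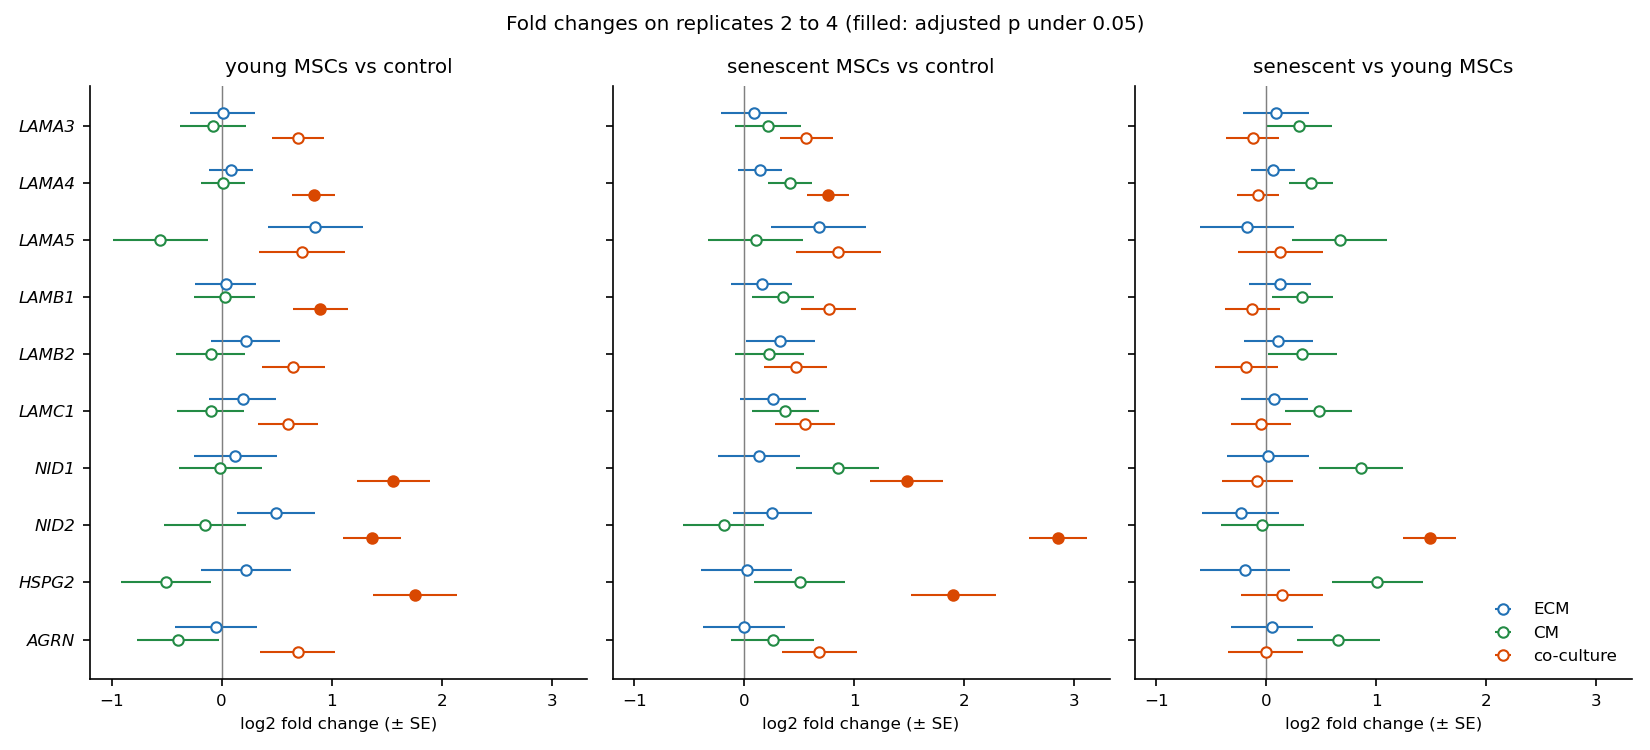
Log2 fold change with standard error for each member (edgeR, TMM, replicates 2 to 4) against control with young MSCs, against control with senescent MSCs, and between senescent and young MSCs, coloured by exposure; filled points have an adjusted p under 0.05. All 10 co-culture points lie right of 0 in the first and second panels, but 5 and 6 of them lie left of it when libraries are scaled to endothelial genes, and NID2 is the only filled point of the third panel.

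The endothelial genes themselves were higher in co-culture. Of 24 endothelial markers, 22 averaged at least 1 CPM in control, and CLDN5 and EMCN stayed below 0.1 CPM in every group. Together they took 0.360 to 0.501% of counts in control libraries and 0.676 to 0.83% in co-culture. PECAM1, the platelet endothelial adhesion molecule, held 412 to 653 CPM in control and 1137 to 1337 CPM in co-culture. Scaling to the endothelial genes therefore moved the median log2 fold change of all genes to -0.81 with young and -0.88 with senescent MSCs. Relative to those medians HSPG2 stood at 1.80 and 1.97, NID1 at 1.58 and 1.53, and LAMA4 at 0.83 and 0.78. Subtracting the median takes this scaling out again, so these values lie close to those under TMM by construction and are no further result. By the labels, control dishes held endothelial cells alone and co-culture dishes both cell types in equal numbers. Bulk libraries give shares of RNA, not cell numbers or RNA per cell. Why the endothelial share was higher in co-culture was not tested.

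Stromal markers were also higher in co-culture. The 17 stromal markers took 0.0436 to 0.0646% of counts in young and 0.0729 to 0.0736% in senescent co-culture, against 0.0095 to 0.0149% in control. COL1A1, the collagen I chain abundant in MSCs, held 47.8 to 71.2 CPM in young co-culture, 117 to 165 CPM in senescent co-culture and 5.70 to 6.12 CPM in control. The markers did not all order the co-cultures alike. TERT, carried by the immortalised MSC line, held 7.91, 6.26 and 6.01 CPM in young and 4.38, 3.86 and 2.97 CPM in senescent co-culture. In control it held 1.51 to 1.90 CPM. Replicate 1 gave a comparison, because its control, ECM and CM libraries carried far more stromal RNA: 0.595 to 1.04% of counts from the stromal list, COL1A1 at 1915 to 5135 CPM, TERT at 655 to 1298 CPM, and all 17 markers at 1 CPM or more.

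NID2 was high in those libraries. It held 17.0 to 39.4 CPM in the 5 replicate 1 libraries of control, ECM and CM, where the 15 libraries of replicates 2 to 4 held 0.114 to 0.432 CPM. Expressed as its excess over the control mean per 1000 CPM of COL1A1 excess, NID2 stood at 3.63 to 16.9 in replicate 1, at 6.0 to 8.5 in young co-culture and at 10.7 to 11.9 in senescent co-culture. The picture depended on the marker. Per 1000 CPM of excess of the summed stromal list, NID2 stood at 1.76 to 5.52 in replicate 1 and at 2.40 to 3.19 in senescent co-culture. In young co-culture it stood at 0.83, 1.66 and 0.85, below all 5 replicate 1 libraries. The part of stromal RNA in the NID2 values of co-culture was not tested.

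HSPG2, LAMA4 and LAMB1 were below their co-culture levels in those libraries, at 205 to 427, 205 to 284 and 283 to 542 CPM. The excess of HSPG2 per 1000 CPM of COL1A1 excess was 3183 to 18340 CPM in co-culture, against -62.8 to 22.2 in replicate 1. LAMA4 gave 1108 to 7376 in co-culture, and in replicate 1 it lay below the control mean in all 5 libraries. LAMB1 gave 1284 to 10790 in co-culture and -63.9 to 2.70 in replicate 1. For NID1 the excess was 121 to 772 in co-culture and 4.67 to 25.7 in replicate 1, where its level was 41.5 to 77.2 CPM, overlapping that of co-culture. These quotients rest on COL1A1 excesses of 41.9 to 159 CPM in co-culture and 1909 to 5129 CPM in replicate 1, whose PECAM1 level was also lower, at 242 to 299 CPM. Of the remaining members AGRN and LAMB2 were above their control means in all 5 replicate 1 libraries, at 109 to 153 CPM against 69.1 and 126 to 172 CPM against 88.6. LAMA3 and LAMA5 were below theirs in all 5, at 15.3 to 24.2 CPM against 37.9 and 149 to 210 CPM against 229, while LAMC1 ran from 415 to 560 CPM around its mean of 499. The part of stromal RNA in the co-culture levels of these members was not tested.

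**Figure D3:**
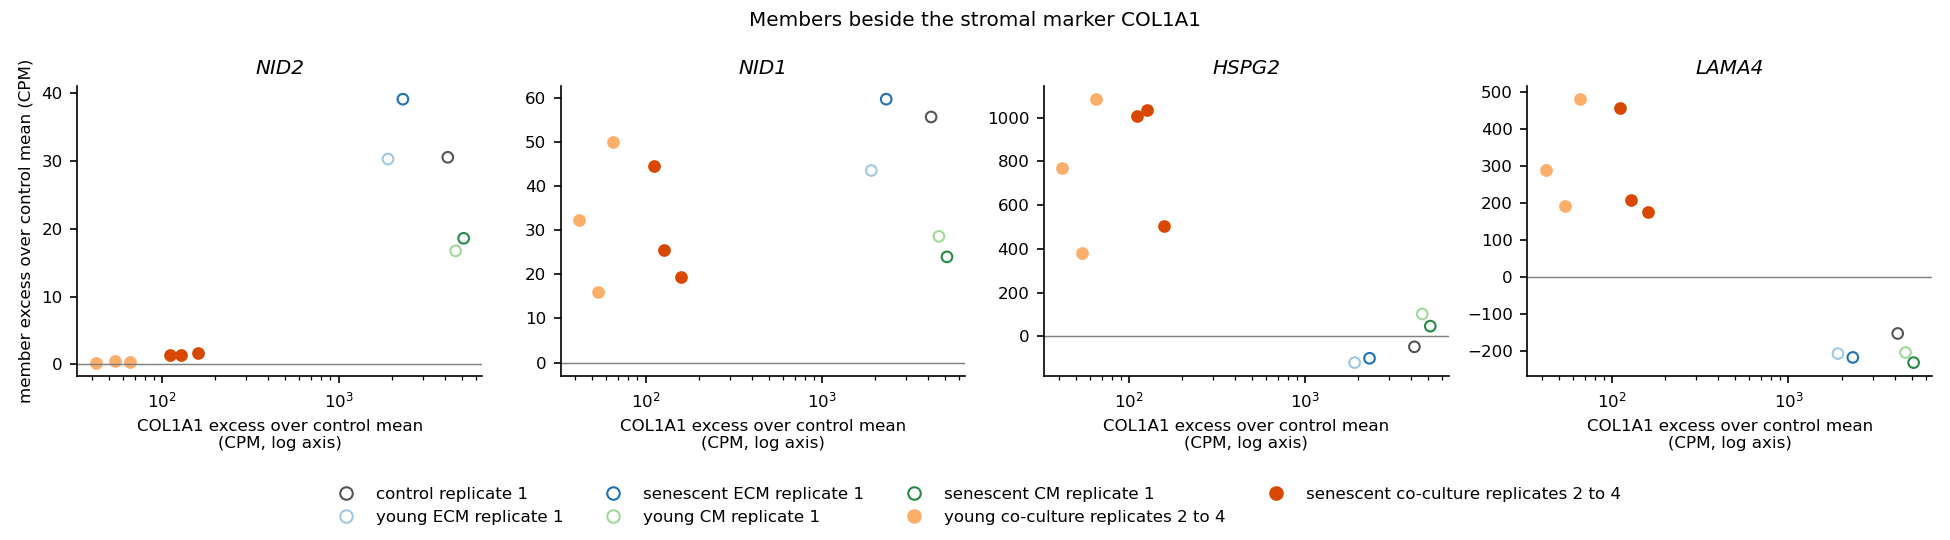
Excess of NID2, NID1, HSPG2 and LAMA4 over the mean of control replicates 2 to 4 (CPM) against the excess of COL1A1 (CPM, log axis). Open points are the 5 replicate 1 libraries of control, ECM and CM and filled points the 6 co-culture libraries of replicates 2 to 4; HSPG2 and LAMA4 are high at low COL1A1 excess, and NID2 is high only at the COL1A1 excess of the open points, 1909 CPM or more.

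Perlecan and agrin, both heparan sulfate proteoglycans, were compared with each other within each library, which leaves the scaling out. The length-corrected ratio of AGRN to HSPG2 was 0.378, 0.394 and 0.318 in control libraries. It was 0.172, 0.193 and 0.155 in young co-culture and 0.197, 0.163 and 0.118 in senescent co-culture. All 6 co-culture values lay below the lowest of the 15 control, ECM and CM values, 0.277 in a senescent CM library. HSPG2 by itself was higher in these 6 libraries than in those 15, so the ratio is no independent result. How many other gene pairs have ratios that separate likewise was not counted. The replicate 1 libraries of control, ECM and CM had ratios from 0.556 to 1.04.

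Beta chains shifted less. LAMB2 was 0.193 ± 0.025 (SD, n = 3) of LAMB1 in control, 0.167 ± 0.018 in young co-culture and 0.162 ± 0.014 in senescent co-culture on the length-corrected scale, with overlapping libraries between control and each co-culture group. On matrix the ratio was 0.224 ± 0.014 (young) and 0.221 ± 0.031 (senescent). NID2 was 0.012 ± 0.006 of NID1 in young co-culture and 0.036 ± 0.013 in senescent co-culture, without overlap between them, but the control value of 0.016 ± 0.012 reached from 0.008 to 0.029.

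**Figure D4:**
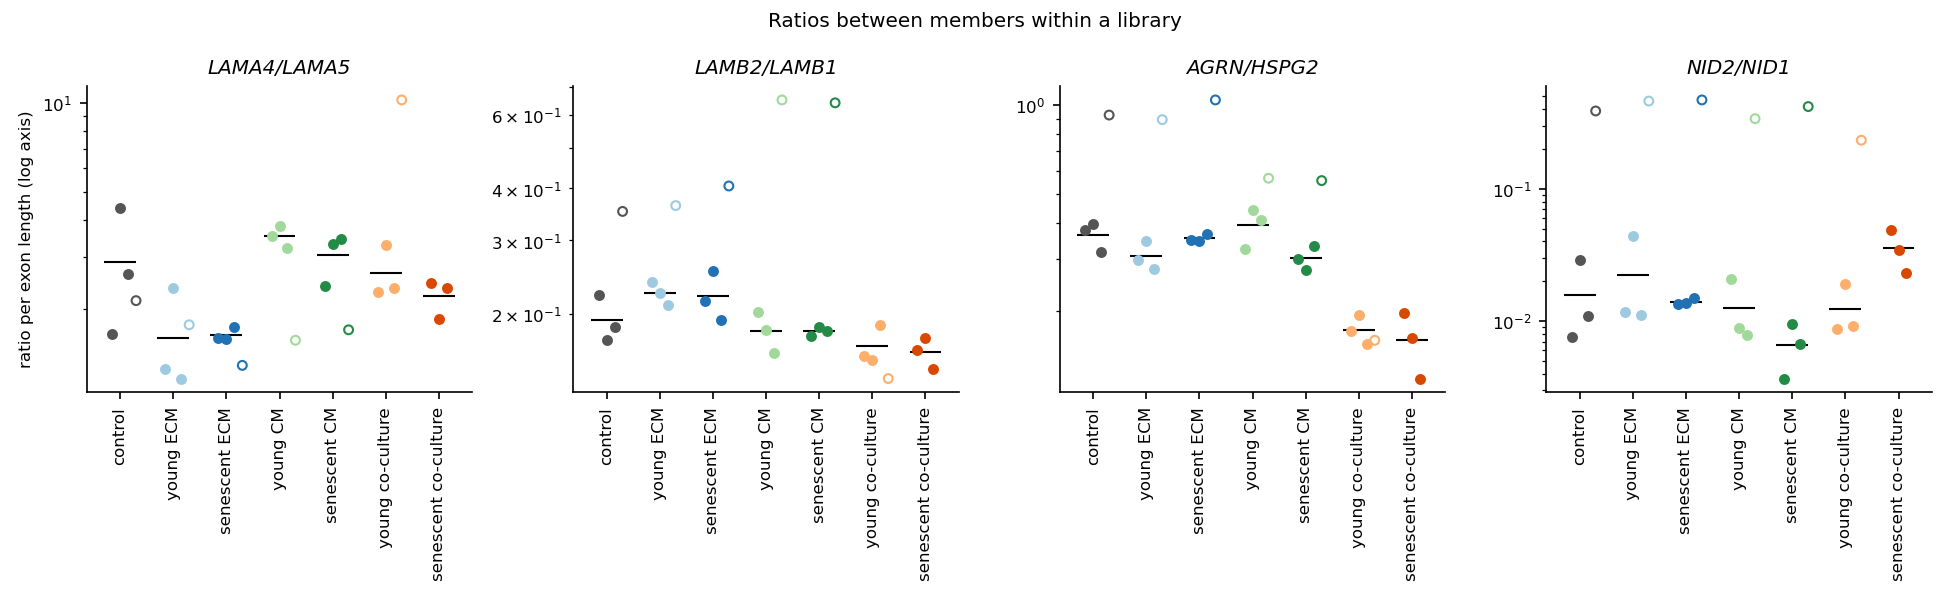
Length-corrected ratios of LAMA4 to LAMA5, LAMB2 to LAMB1, AGRN to HSPG2 and NID2 to NID1 in every library (log axis), by group. Filled points are replicates 2 to 4, black lines their mean and open points replicate 1; AGRN to HSPG2 is below 0.2 in all filled co-culture points and above 0.27 in all other filled points.

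Decellularised matrix left most members near control. With young ECM 0 of 10 members were called, against 0.649% of all genes, and with senescent ECM 0 of 10, against 0.3%; 0 members had an unadjusted p under 0.05 in either comparison by edgeR, and DESeq2 also called 0 in both. Median log2 fold changes of the members were 0.16 and 0.15. LAMA5 (ENSG00000130702.15, chr20:62307955-62367312, minus strand) had the largest value in both. It held 368, 97.9 and 221 CPM in control, 520, 184 and 530 CPM on young ECM and 422, 397 and 280 CPM on senescent ECM. Young ECM replicates 2 and 4 lay above all control libraries and replicate 3 did not, but each young ECM library was higher than the control library of the same number. The log2 fold changes by edgeR were 0.85 ± 0.43 (adjusted p = 0.65) and 0.68 ± 0.43 (adjusted p = 0.96).

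Conditioned medium of young MSCs gave 0 of 10 called members, where 0% of all genes were called, with 0 members at an unadjusted p under 0.05 and 0 called by DESeq2. Senescent CM gave 0 of 10, against 0.505% of all genes. In the latter NID1 had an unadjusted p under 0.05 by edgeR, the only member to do so, and DESeq2 called 0 members. NID1 held 38.5, 26.7 and 29.1 CPM in senescent CM, above all control libraries, for a log2 fold change of 0.85 ± 0.38 (adjusted p = 0.73, edgeR). LAMA4 was the other member whose libraries did not overlap control, 2 of 10 members where 5.2% of all genes were separate and higher.

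The exposures were also set against each other. Between young ECM and young CM 0 of 10 members were called by edgeR, against 3.35% of all genes, with LAMA5 the 1 member at an unadjusted p under 0.05. LAMA5 held 149, 119 and 187 CPM in young CM, below the ECM libraries except that the 187 CPM of replicate 4 passed the 184 CPM of young ECM replicate 3. Its log2 fold change, ECM over CM, was 1.41 ± 0.44 (adjusted p = 0.095). DESeq2 called it (adjusted p = 0.0164), as did edgeR without young ECM replicate 3 (1.83, adjusted p = 0.0132) and without replicate 3 of every group (adjusted p = 0.0289). Between senescent ECM and senescent CM 0 of 10 members were called, against 4.9% of all genes, with 0 members at an unadjusted p under 0.05 and 0 called by DESeq2. There LAMA5 differed by 0.57 ± 0.43 and NID1 by -0.71 ± 0.38 (adjusted p = 0.66 and 0.42).

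In replicates 2 to 4 the balance of the endothelial alpha chains was separate between matrix and medium, where neither chain was. The length-corrected ratio of LAMA4 to LAMA5 was 1.26, 2.36 and 1.16 on young ECM and 3.54, 3.82 and 3.22 in young CM. On senescent ECM it was 1.59, 1.58 and 1.74, and in senescent CM it was 2.40, 3.32 and 3.45. Matrix and medium did not overlap in either pair of these groups. In replicate 1 the order was reversed with young MSCs, at 1.77 on ECM and 1.57 in CM. With senescent MSCs it was kept, at 1.29 on ECM and 1.70 in CM. Control libraries of replicates 2 to 4 spanned both ranges, at 1.64, 4.39 and 2.62, and the co-culture libraries ran from 1.85 to 3.30. Separation was not particular to these chains. LAMB2 to LAMB1 was separate in both pairs too, at 0.2102 to 0.2385 on young ECM against 0.1612 to 0.2024 in young CM. With senescent MSCs it was 0.1935 to 0.2538 on ECM against 0.1769 to 0.1861 in CM. In replicate 1 its order was reversed with both kinds of MSCs. AGRN to HSPG2 and NID2 to NID1 were separate with senescent MSCs and overlapped with young MSCs. How often ratios of gene pairs beyond these separate was not counted.

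Whether the MSCs were young or senescent made a called difference for NID2 alone, in co-culture, 1 of 10 members against 0.395% of all genes. Its log2 fold change there is 1.49 ± 0.24 (adjusted p = 0.023, edgeR), a value known when the members were chosen. DESeq2 also called it, but by edgeR it was no longer called when any 1 of the 6 co-culture libraries was left out (adjusted p from 0.0541 to 0.184) or on the endothelial scale (adjusted p = 0.166). COL1A1 and the summed stromal list were higher in the same senescent libraries, as given above. TERT, also on that list, was lower in them than in the young co-culture libraries. The other 9 members differed by -0.18 to 0.14 on the log2 scale, each with a standard error of 0.19 to 0.39.

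On matrix, senescent and young MSCs gave 0 of 10 called members, where 0% of all genes were called, with 0 at an unadjusted p under 0.05 and 0 by DESeq2. The log2 differences lay between -0.23 and 0.12. In conditioned medium they were larger without passing the test: 0 of 10 members were called, against 0.0167% of all genes, 2 members had an unadjusted p under 0.05 and DESeq2 called 0. Positive log2 fold changes were found for 9 of the 10, with a median of 0.44 against -0.03 for all genes, but for 6 of 10 on the endothelial scale, whose all-gene median was -0.41.

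HSPG2 led that difference, with 240, 153 and 279 CPM in young CM and 593, 412 and 370 CPM in senescent CM. The groups did not overlap, and the log2 fold change was 1.01 ± 0.41 (adjusted p = 0.77, edgeR). NID1 differed by 0.86 ± 0.38, LAMA5 by 0.67 ± 0.43 and AGRN by 0.65 ± 0.38, all with the same adjusted p of 0.77. HSPG2, NID1 and LAMA4 were the 3 of 10 members whose libraries were separate and higher in senescent CM, against 6.88% of all genes. On the endothelial scale their log2 fold changes were 0.63, 0.48 and 0.01. Endothelial markers summed to 0.533–0.629% of counts in senescent CM against 0.398–0.483% in young CM, and stromal markers to 0.0232–0.0293% against 0.0119–0.0150%, both without overlap. The part of these markers in the difference was not tested.

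The effect of senescence was then compared between exposures in 1 fit of all 21 libraries. The NID2 effect was larger in co-culture than in CM by 1.51 ± 0.44 on the log2 scale (adjusted p = 0.38) and larger than on ECM by 1.73 ± 0.42 (adjusted p = 0.37). By edgeR 0 of 10 members were called in each of these differences, against 0.103% and 0.0487% of all genes, NID2 being the 1 member at an unadjusted p under 0.05 in both. DESeq2 called 0 members in the first and NID2 in the second. The difference between CM and ECM had 0 called members, against 0.00541% of all genes, with HSPG2 the 1 member at an unadjusted p under 0.05 and 0 by DESeq2.

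Ordered by mean level, the highest group was young co-culture for LAMA3, LAMA4, LAMB1, LAMB2, LAMC1, NID1 and AGRN and senescent co-culture for HSPG2 and NID2. Neighbouring groups in that order overlapped in all 6 pairs for 7 members. For HSPG2 and NID1 they overlapped in 5 of 6 pairs, and for NID2 in 4 of 6. LAMA5 was the exception in order, with young ECM highest at 412 ± 197 CPM, young CM lowest at 152 ± 34.2 CPM and every neighbouring pair overlapping.

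Much of the spread inside a group fell on single libraries and was shared by most members. Control replicate 3 was the lowest of its group for 9 of 10 members, young ECM replicate 3 for 9, young CM replicate 3 for 10, young co-culture replicate 3 for 9 and senescent ECM replicate 4 for 10. In the first 4 of these libraries ribosomal protein genes took 9.07, 10.9, 10.9 and 8.13% of counts, the highest share of each group, though young CM replicate 2 was close at 10.7%. Genes with at least 8000 bases of exon, among them 7 of the 10 members, took 18.1, 15.7, 16.1 and 18.6% of counts there, the lowest share of the group in all but young CM. In young CM replicate 2 that share was lower still, at 15.7%, yet it was the lowest library of its group for 0 members. Senescent ECM replicate 4 did not stand out in either share, at 6.69% and 20.2%. The part of these shares in the members' levels was not tested. Without the libraries numbered 3, young co-culture kept 5 called members and senescent co-culture 4.

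**Figure D5:**
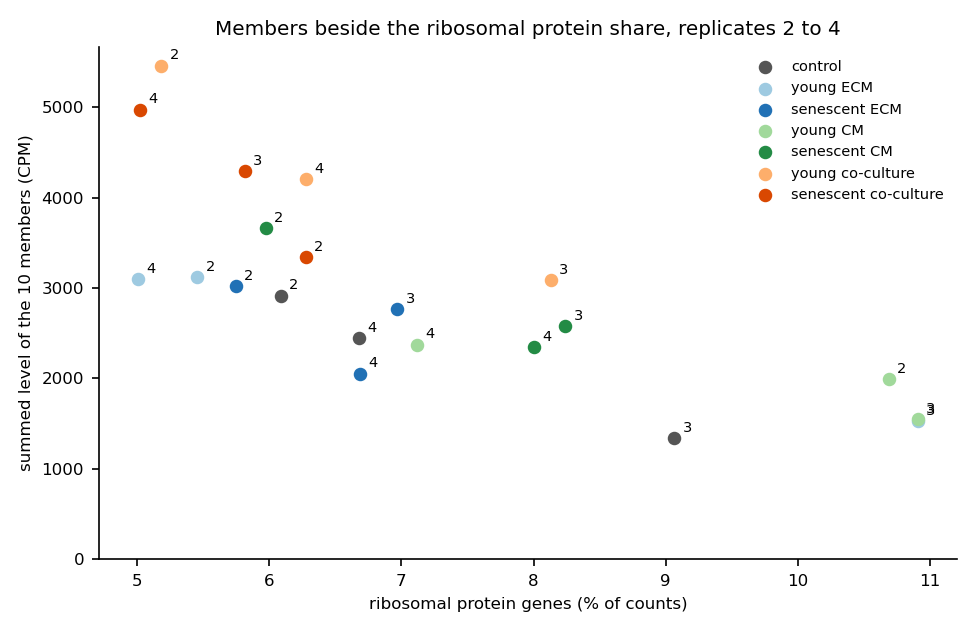
Summed level of the 10 members (CPM) against the share of counts on ribosomal protein genes (%) in the 21 libraries of replicates 2 to 4, coloured by group and numbered by replicate. The summed level runs from 1342 CPM (control, library 3, at 9.07%) to 5462 CPM (young co-culture, library 2, at 5.18%).

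Across the 21 libraries, which share these differences in composition, the members other than NID2 varied together. Pearson correlations of log2 levels over their 36 pairs ran from 0.659 to 0.971, with a median of 0.89, and the highest joined LAMA4 and LAMB1. NID2 correlated with the other 9 at 0.286 to 0.681. Among 9936 genes, those most alike in pattern to NID2 were COL6A2 (r = 0.958), MOXD1 (r = 0.954) and COL3A1 (r = 0.952), the first and the last of which encode fibrillar or microfibrillar collagens. For HSPG2 they were PLXND1 (r = 0.976), an endothelial semaphorin receptor, DOCK6 (r = 0.970) and PCYOX1L (r = 0.960). LAMA4 was most like NRP2 (r = 0.976), a neuropilin receptor, and NID1 was most like KSR1 and the fibrillin FBN1 (both r = 0.978). These are descriptions over 21 libraries.

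Genes that work beside these members were counted from 6 lists. Basement membrane collagens had 0 called members of 6 tested in both co-cultures by edgeR, with 5 and 3 at an unadjusted p under 0.05, 1 and 3 called by DESeq2, and median log2 fold changes of 0.74 and 0.70. Of 13 laminin and agrin receptors, SDC2 and ITGB4 rose with young MSCs and SDC2, ITGA7 and ITGB4 with senescent MSCs, while MUSK, the agrin co-receptor kinase, fell in both. ITGB4, the beta chain of the integrin that binds laminin in hemidesmosomes, rose by 1.12 ± 0.23 and 0.82 ± 0.23 on the log2 scale under TMM, against 0.32 and -0.03 on the endothelial scale.

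Enzymes and partners of the matrix were also among the called genes. Of 5 proteases tested, MMP2, a gelatinase that cleaves basement membrane collagen, rose by 1.48 ± 0.18 and 1.36 ± 0.18, and BMP1 rose by 0.97 ± 0.20 and 1.01 ± 0.20. Of 11 heparan sulfate genes, the sulfatases SULF1 and SULF2 rose in both co-cultures under TMM, although SULF2 with senescent MSCs stood at -0.06 on the endothelial scale. Of 7 assembly genes, SPARC and FBLN1 rose in both, TGM2 with young (-0.03 on the endothelial scale) and FBLN5 with senescent MSCs. Between senescent and young co-culture SULF1 (1.21 ± 0.21, adjusted p = 0.0364) and FBLN1 (1.94 ± 0.23, adjusted p = 0.00341) were higher, as NID2 was. SDC2, SULF1 and FBLN1 were also high in the 5 stromal-rich replicate 1 libraries, at 122 to 201, 11.8 to 21.0 and 44.3 to 54.8 CPM against control means of 0.488, 0.380 and 0.734 CPM. FBLN5 (10.4 to 17.2 against 0.224 CPM), SPARC (702 to 1469 against 302 CPM), BMP1 (75.2 to 118 against 27.8 CPM) and ITGA7 (1.30 to 2.69 against 0.627 CPM) were also above their control means there. SULF2 was not, at 2.99 to 5.85 CPM against 16 CPM in control.

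Several related genes were called between matrix and medium, where 3.35% of all genes with young and 4.9% with senescent MSCs were called. NTN4, a laminin-related netrin of vessel basement membranes, was higher on ECM than in CM by 0.82 ± 0.19 (adjusted p = 0.0236) with young and 0.76 ± 0.19 (adjusted p = 0.0256) with senescent MSCs. COL4A6, a collagen IV chain, was higher by 1.61 ± 0.33 and 1.36 ± 0.33, and the heparanase gene HPSE by 1.00 ± 0.23 and 1.04 ± 0.23. Of the 6 basement membrane collagens tested, COL4A6 alone was called higher on ECM. Another collagen IV chain was called lower on ECM with senescent MSCs, so the chains did not move together. SULF2 was lower by the log2 values -1.05 ± 0.17 and -1.41 ± 0.17, and MMP2 by -0.87 ± 0.22 and -1.67 ± 0.22. Against control, CTSL (cathepsin L) was higher on both matrices, by 1.10 ± 0.17 (adjusted p = 0.00673) and 1.00 ± 0.17 (adjusted p = 0.0207). SULF2 was lower than control on young ECM, with a log2 value of -0.80 ± 0.17 (adjusted p = 0.0458, edgeR). That call was lost in every fit that left out 1 library (adjusted p from 0.0595 to 0.216). Of the 36 calls of related genes named here, 16 held in every fit that left out 1 library. They were SDC2, MMP2, SPARC, SULF1 and SULF2 in both co-cultures, FBLN1 and FBLN5 with senescent MSCs, FBLN1 between the co-cultures, and on the matrix side MMP2 with senescent MSCs and SULF2 with both kinds of MSCs. On the endothelial scale 15 of the 36 calls were lost, among them those of BMP1, SPARC, SULF2 and ITGB4 in both co-cultures, SULF1 between the co-cultures, NTN4 with young MSCs and CTSL on both matrices.

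The first young co-culture library was unlike the stromal-rich libraries. Ribosomal protein genes took 23.6% of its counts, its long genes took 6.73%, and the 10 members summed to 386 CPM against 3086 to 5462 CPM in the other young co-culture libraries. HSPG2 held 25.7 CPM there and AGRN 2.43 CPM, while LAMA4 held 168 CPM. With replicate 1 of all groups in the fit, 0 members were called in young, senescent and senescent against young co-culture, and NID2 turned to log2 fold changes of -3.76 and -2.21 against control.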

How the data were processed

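Poly(A) RNA of 27 EA.hy926 cultures in 7 groups was sequenced from strand-marking libraries, per the labels' protocols. The authors deposited raw whole-number counts of 60648 gene entries. Per the submitters' processing notes, HISAT2 2.2.1 (GRCh38) and featureCounts 2.0.1 made them. Annotation release and counting strand: not given in the sources used here, so genes overlapping on the other strand could share reads. The 44 Y copies of pseudoautosomal genes (109832 counts) were left out, and 60462 of the 60604 entries used had a symbol in the name table. Totals ran from 66320519 to 111512357 counts per library, and all pairs of libraries within a group differed beyond sampling noise (lowest chi-square per degree of freedom 21.9). The labels name 1 sequencing run and do not say whether replicates were separate cultures, so p-values measure the spread between libraries, which may be technical.

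Counts were tested with edgeR 4.0.16 (quasi-likelihood, 2-sided, filterByExpr at 10 counts, TMM, Benjamini-Hochberg over all genes tested, threshold 0.05) under R 4.3.3, and checked on simulated data. Control, ECM and CM were fitted together (15 libraries, 18015 genes), as were control and co-culture (9 libraries, 17729 genes), and all 21 libraries (18492 genes) for differences between effects, 14 comparisons in all. DESeq2 1.42.0, other scalings, no filter, a replicate block, all replicates and leaving out single libraries were alternatives; leaving out every library numbered 3 was added after the data were seen. Correlations used log2(CPM + 0.5) of genes with a group mean of at least 5 CPM. Exon lengths and positions are from GENCODE 29, promoters from RefSeq. The members and the gene lists were chosen with earlier results of these data known. Named genes are the 10 members, the called genes of the related lists and the 3 genes most correlated with a member; 1 gene of these lists is not reported here.

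Same-numbered libraries deviated from their group means together (every correlation over 0.1) for control with young ECM, young CM and young co-culture, for senescent with young CM and for senescent ECM with senescent CM, as a pattern of the data; for young co-culture the correlations with control were 0.593, 0.748 and 0.260.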

Additional observations from a re-analysis of the deposited data

Results flagged for a closer look

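Of 60 member and group combinations, 6 held 1 library far from the other 3 of its group by Dixon's gap test, where chance alone marks about 1 in 20. All 6 were replicate 1 libraries of control, ECM or CM. NID2 was at 30.8 CPM in control, 30.6 CPM on young ECM, 39.4 CPM on senescent ECM, 17.0 CPM in young CM and 18.9 CPM in senescent CM, each time above the other libraries of its group. NID1 was at 77.2 CPM in senescent ECM replicate 1. The same libraries carried the high COL1A1 and stromal marker levels given in the report.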

How the results depend on the processing

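Without the filter on low counts more members were called: 10 with young and 8 with senescent co-culture against control, 2 each for senescent against young CM and young ECM against young CM, and 1 each for young ECM against control, senescent CM against control, senescent ECM against senescent CM, and the senescence effects of co-culture minus CM and CM minus ECM. The cause was not tested. With all replicates, young, senescent and senescent against young co-culture had 0 calls, and LAMB2, NID2 and AGRN turned to -0.041, -3.76 and -0.14 with young MSCs and NID2 to -2.21 with senescent MSCs, as did SDC2 (-4.91 and -3.76), FBLN1 (-3.08 and -1.44) and SULF1 (-1.57 and -0.25) with both and FBLN5 (-1.61) with senescent MSCs. Endothelial scaling left 2 calls in young co-culture and 0 between co-cultures, and turned LAMA3 (-0.12), LAMA5 (-0.033), LAMB2 (-0.13), LAMC1 (-0.19) and AGRN (-0.075) with young MSCs and LAMA3 (-0.29), LAMA4 (-0.11), LAMB1 (-0.080), LAMB2 (-0.37), LAMC1 (-0.29) and AGRN (-0.14) with senescent MSCs; of related genes it turned TGM2 (-0.029) with young and ITGB4 (-0.032) and SULF2 (-0.057) with senescent MSCs.

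For young ECM against young CM, DESeq2, the replicate block and leaving out every library numbered 3 gave 1 call each (LAMA5), and DESeq2 gave 1 for the senescence effect of co-culture minus ECM. With the replicate block, young co-culture had 6 and senescent co-culture 5 called members; same-numbered senescent co-culture and control libraries did not vary together, nor did those of young ECM and young CM in replicate 2 (-0.155). The block changed no other count of members called. Leaving out 1 library gave 1 to 8 calls for young co-culture (1 without young co-culture replicate 2, 2 without control replicate 4, 3 without young co-culture replicate 4, 8 without control replicate 2), 2 to 7 for senescent co-culture (2 without senescent co-culture replicate 4, 7 without control replicate 2), 0 for senescent against young co-culture, 0 to 1 for young ECM against young CM and 0 for the other comparisons. Mean levels of the 10 members in the 7 groups moved by less than 1 SD without TMM. NID2, at 9 to 35 counts in control, ECM and CM libraries, is the member depth limits most.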
